A study of Mus musculus with 5 samples.

Results

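Cysteine tRNA genes carry the anticodon GCA, and their transcripts were followed here by locus name in medium length RNA sequencing (melRNA-seq) libraries of mouse testis and spermatogonia. The members were all names that begin with tRNA_ and end with CysGCA in the deposited count tables, grouped by the chromosome in the name. They were 22 of the 1042 names that hold reads in any library, with 19 names on chr6, 2 on chr9 and 1 on chr11, beside 206 names of other tRNAs. The group was put together with the read counts in view, so its levels, its ratios between libraries and its division by chromosome are given as a description without tests.

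The study used C57BL/6J mice and sequenced RNA that the labels of both tissues give as 115 to 255 nt, a range that the methods state for testis only. Whole testis RNA, listed by the study under postnatal day 7, gave 1 library without enzyme, 1 library after tobacco alkaline phosphatase (TAP, as the labels name it) and 1 library after 5′ polyphosphatase. Spermatogonia sorted with an antibody to EpCAM from testes of postnatal day 7 gave 2 libraries, both after RNA 5′ pyrophosphohydrolase (RppH), which the study calls biological replicates. No RppH library of whole testis and no untreated library of spermatogonia were analysed here, the kit differed as well and the gel selection may have, so tissue, enzyme, kit and size selection cannot be told apart between testis and spermatogonia. Each testis treatment has 1 library, so no ratio within testis has a replicate check. The names are those of repeats and small RNAs without messenger RNA markers, so the labelled cell type could not be checked.

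A tRNA gene is transcribed by RNA polymerase III, and the primary transcript starts with a 5′ triphosphate. RNase P cuts off the 5′ leader and leaves a monophosphate, RNase Z trims the 3′ trailer, and the CCA end is then added. TAP and RppH open caps and triphosphates to a monophosphate and 5′ polyphosphatase acts on triphosphates, while the 5′ adaptor joins only a 5′ monophosphate. An RNA read without enzyme therefore carried a monophosphate already, and an RNA read only after an enzyme had another 5′ end.

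Each testis library held between 1067851 and 1160933 listed reads, and the spermatogonia libraries held 3166394 (replicate 1) and 1993087 (replicate 2). Levels are given as RPM, which is the count of a name per 1000000 reads that the same library gave to 5.8S rRNA. The 5.8S rRNA itself took from 19.2% to 50.2% of the listed reads, so the main ratios are given per listed read as well. A ratio stated without a denominator is per 5.8S read. A count of 3 reads, used below as the floor for a name without reads, stood for between 5.60 and 14.4 RPM in testis and for 2.43 and 5.82 RPM in spermatogonia. Intervals are 95% intervals from the read counts. They compare libraries, and without molecular identifiers they cover counting error only. In bulk RNA, fewer cells of a type and less RNA per cell cannot be told apart.

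CysGCA reads were scarce in testis and abundant in spermatogonia. Untreated testis had 3 CysGCA reads, testis after TAP had 30, testis after 5′ polyphosphatase had 42, and spermatogonia had 5163 and 3342. These counts correspond to 9.49, 56.0 and 202 RPM in testis and to 5328 ± 1632 RPM in spermatogonia (SD, n = 2; 4174 and 6482 RPM). Both spermatogonia libraries stood far above each testis library, and the untreated library held no more than the floor.

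As a share of all listed reads the replicates lay closer together than per 5.8S read. CysGCA names made up 0.163% of the listed reads in replicate 1, with a Wilson 95% interval from 0.159% to 0.168%. In replicate 2 they made up 0.168% (0.162% to 0.173%). The testis libraries gave 0.000258% untreated, 0.00281% with TAP and 0.00388% with 5′ polyphosphatase. Among tRNA reads only, CysGCA was at 0.0212%, 0.151% and 0.234% in the testis libraries, in the same order, and at 6.86% and 4.72% in spermatogonia. Ordered by reads among the tRNA families, which are the groups of names with the same anticodon, CysGCA stood at places 36 (untreated), 29 (TAP) and 30 (5′ polyphosphatase) in testis. In spermatogonia it stood at place 4 in replicate 1 and at place 5 in replicate 2.

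**Figure D1:**
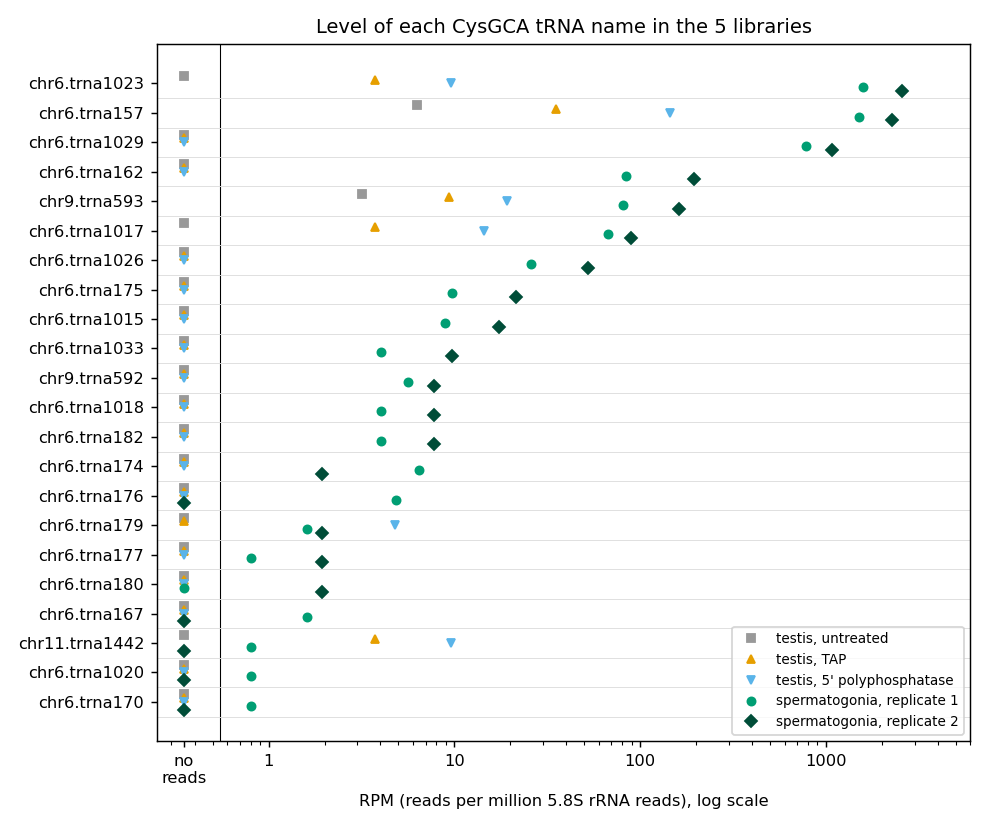
Level of each of the 22 CysGCA names (rows, ordered by their level in spermatogonia) in RPM on a log scale, with 1 point per library and names without reads placed at the left edge. In spermatogonia chr6.trna1023, chr6.trna157 and chr6.trna1029 lie between 777 and 2572 RPM, and in the untreated testis library 2 names hold reads.

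Few members had reads in testis. The name chr6.trna157, written in full tRNA_chr6.trna157-CysGCA, and the name chr9.trna593 were the 2 members with reads in all 5 libraries. A read was found for 6 of the 22 members in any testis library, and 16 had reads only in spermatogonia. These counts were not taken at equal numbers of reads, so they do not show that the tissues differ in the names used. TAP testis had 5 names in 30 CysGCA reads, where as many reads of spermatogonia would give 4.84 and 5.04 names. Testis after 5′ polyphosphatase had 6 names in 42 reads, against 5.39 and 5.61. In spermatogonia 16 members had reads in both replicates and 6 in 1 replicate only, each of the latter with at most 6 reads.

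The leading member in testis was chr6.trna157. It had 2 reads (6.33 RPM) in untreated testis, 19 reads (35.4 RPM) after TAP and 30 reads (144 RPM) after 5′ polyphosphatase. In spermatogonia it had 1867 and 1166 reads, or 1509 and 2261 RPM. Every testis library had most of its CysGCA reads under this name.

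The leading member in spermatogonia was chr6.trna1023. It had no read in untreated testis, 2 reads (3.73 RPM) after TAP and 2 reads (9.62 RPM) after 5′ polyphosphatase, below the floor of 3 reads. In spermatogonia it had 1949 and 1326 reads, or 1576 and 2572 RPM. It was thus above chr6.trna157 in both spermatogonia replicates and far below it in both enzyme-treated testis libraries.

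A member with many reads in spermatogonia and none in testis was chr6.trna1029. It had 961 reads (777 RPM) in replicate 1 and 553 reads (1073 RPM) in replicate 2. The next such name, chr6.trna162, had 104 and 100 reads and no testis read either. Of the names with fewer reads, chr6.trna1017 had 0, 2 and 3 reads in untreated, TAP and 5′ polyphosphatase testis and 83 and 46 in spermatogonia. The name chr6.trna1026 had no testis read and 32 and 27 reads in spermatogonia. The names chr6.trna175, chr6.trna1015 and chr6.trna1033 had between 5 and 12 reads in each spermatogonia library and no testis read.

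Off chr6, chr9.trna593 had 1 read in untreated testis, 5 reads in TAP testis and 4 reads in 5′ polyphosphatase testis. In spermatogonia it had 100 and 83 reads, or 80.8 and 161 RPM. It was the second most frequent name in TAP testis and the fifth in spermatogonia, a lower place at a higher level. The other chr9 name, chr9.trna592, had 7 and 4 reads in spermatogonia and none in testis. The chr11 name, chr11.trna1442, had 2 reads after TAP, 2 after 5′ polyphosphatase and 1 in spermatogonia replicate 1. It had none in untreated testis or replicate 2, and with all its counts under the floor no direction can be read. It belonged to the 11 members with fewer than 10 reads over the 5 libraries, of which the other 10 were on chr6. These 11 had from 1 to 9 reads each and summed to 32 and 12 reads in the spermatogonia libraries.

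The chr6 names held the majority of CysGCA reads in every library, and a larger share in spermatogonia. Without enzyme, chr6 gave 66.7% of the CysGCA reads (Wilson 95% interval 20.8% to 93.9%). With TAP it gave 76.7% (59.1% to 88.2%), and with 5′ polyphosphatase 85.7% (72.2% to 93.3%). Spermatogonia had 97.7% ± 0.362 (SD, n = 2), made up of 97.9% (97.5% to 98.3%) for replicate 1 and 97.4% (96.8% to 97.9%) for replicate 2. These intervals cover the counting error of single libraries, and the division by chromosome was made with the counts in view. Whether the tissues differ in this share was therefore not tested. The interval of the untreated library, with 3 reads, spanned most of the scale.

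**Figure D2:**
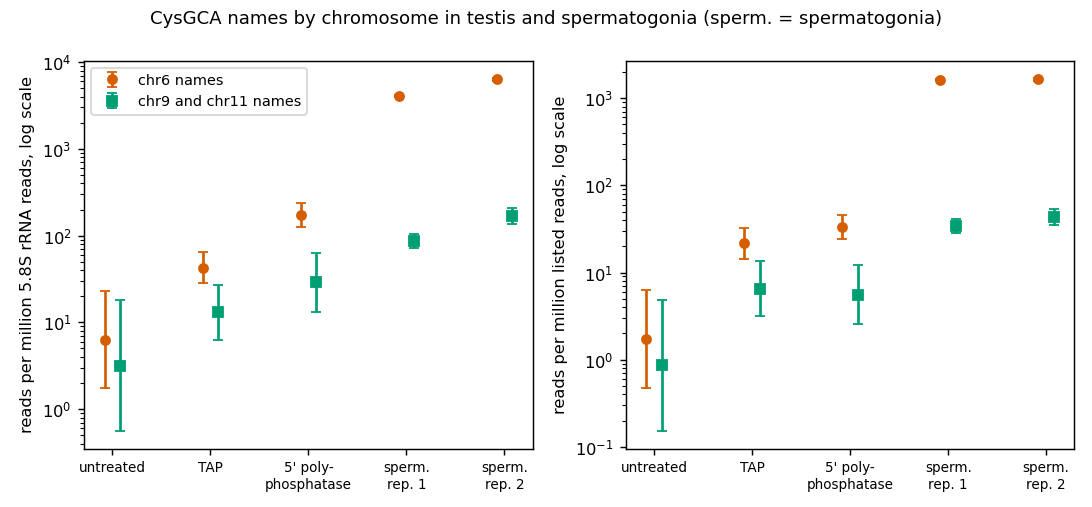
Summed level of the chr6 names and of the chr9 and chr11 names in each library, per 1000000 reads of 5.8S rRNA (left) and per 1000000 listed reads (right), on log scales with Wilson 95% intervals as bars. The chr6 names lie at 4087 and 6313 RPM in spermatogonia, while the chr9 and chr11 names lie at 87.3 and 169 RPM.

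The numbers in the chr6 names fell in 2 runs. The lower run went from 157 to 182 with 11 names, and the higher run went from 1015 to 1033 with 8 names. The lower run had 2, 19 and 31 reads in untreated, TAP and 5′ polyphosphatase testis and 2008 and 1285 in spermatogonia. The higher run had 0, 4 and 5 reads in testis and 3047 and 1970 in spermatogonia. Of the CysGCA reads the lower run thus took 63.3% (45.5% to 78.1%) in TAP testis and 73.8% (58.9% to 84.7%) in 5′ polyphosphatase testis, but 38.9% and 38.5% in spermatogonia. The higher run took 13.3% (5.31% to 29.7%) and 11.9% (5.19% to 25.0%) in the same testis libraries, and 59.0% and 58.9% in spermatogonia. What the runs are in the genome is not given by the names alone. The runs were formed after the numbers and reads had been seen.

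Much the same reads can be set out by single names, which were chosen with the counts in view. As in the shares of the runs, the choice of denominator drops out. For each 100 reads of chr6.trna157, the name chr6.trna1023 had 10.5 in TAP testis (95% interval 2.45 to 45.2) and 6.67 in 5′ polyphosphatase testis (1.59 to 27.9). In spermatogonia it had 104 (98.0 to 111) in replicate 1 and 114 (105 to 123) in replicate 2. For chr6.trna1029 the values in spermatogonia were 51.5 (47.6 to 55.6) and 47.4 (42.9 to 52.5). Its absence in testis allowed up to 15.8 after TAP and up to 10 after 5′ polyphosphatase, taking 3 reads as the limit of a count of 0. For chr9.trna593 the values went down from 26.3 after TAP and 13.3 after 5′ polyphosphatase to 5.36 and 7.12 in spermatogonia.

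**Figure D3:**
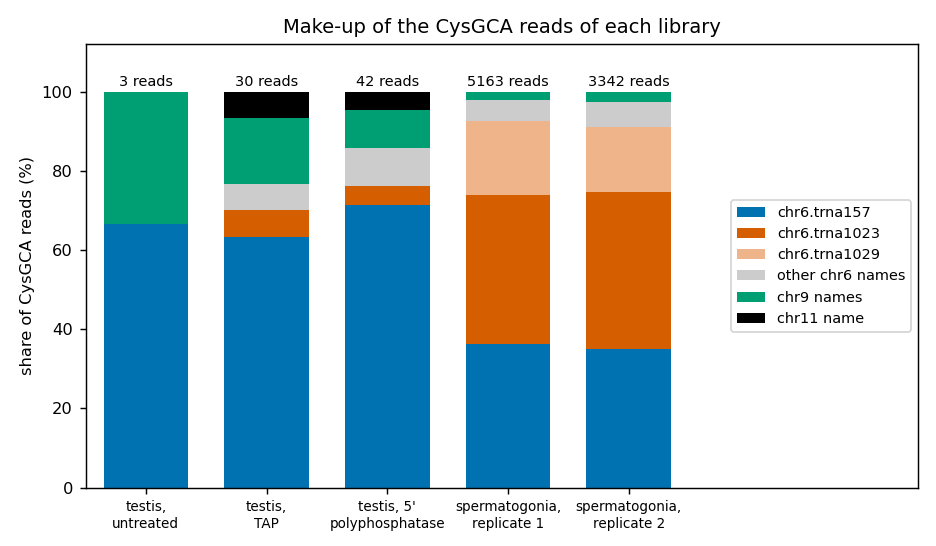
Share of the CysGCA reads of each library (bars, percent) given by 3 named chr6 members, the other chr6 names, the chr9 names and the chr11 name, with the number of CysGCA reads above each bar. The name chr6.trna157 gives 63.3% with TAP and 71.4% with 5′ polyphosphatase, and 36.2% and 34.9% in spermatogonia, where chr6.trna1023 and chr6.trna1029 take most of the rest.

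The enzymes were compared in testis to see which 5′ ends the CysGCA transcripts carried. The total after TAP was 5.90 times that of untreated testis per 5.8S read (95% interval 1.80 to 19.3), 10.9 times per listed read and 15.8 times when scaled by the median ratio of the names with at least 10 reads in both libraries. After 5′ polyphosphatase it was 21.3 times that of untreated testis per 5.8S read (6.60 to 68.6), 15.0 times per listed read and 14.1 times with the median scaling. Both ratios rest on 3 reads in the untreated library, and the names were chosen with these counts in view. An interval computed exactly from the split of the reads went from 1.83 to 30.2 for TAP and from 6.80 to 107 for 5′ polyphosphatase.

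The order of the 2 enzymes depended on the scaling. Testis after 5′ polyphosphatase had 3.61 times the CysGCA level of testis after TAP per 5.8S read (2.26 to 5.76), but 1.38 times per listed read and 1.05 times with the median scaling between these libraries. Through the untreated library, the median scaling placed TAP, at 15.8, above 5′ polyphosphatase, at 14.1. The share of 5.8S rRNA among the listed reads was 50.2% after TAP and 19.2% after 5′ polyphosphatase.

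By chromosome, the chr6 names after TAP were at 6.78 times their untreated level per 5.8S read (1.60 to 28.8) and 12.5 times per listed read. After 5′ polyphosphatase they were at 27.4 times (6.59 to 114) and 19.3 times. The chr9 and chr11 names were at 4.13 times after TAP (0.508 to 33.6) and at 9.12 times after 5′ polyphosphatase (1.10 to 75.7), or 7.61 and 6.44 times per listed read. With 2 untreated reads on chr6 and 1 off chr6, the enzyme response of the chromosomes could not be compared. For chr6.trna157 alone TAP gave a ratio of 5.60 (1.31 to 24.1; 10.3 per listed read) and 5′ polyphosphatase one of 22.8 (5.45 to 95.4; 16.1 per listed read).

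The names of other tRNAs were summed for comparison, and 1 family, GluCTC, gave 65.8% of all tRNA reads in untreated testis and 62.7% after TAP. The other tRNA names went from 44742 RPM in untreated testis to 36958 RPM after TAP, 0.826 times (0.808 to 0.844) per 5.8S read and 1.52 times per listed read. After 5′ polyphosphatase they were at 1.93 times the untreated level per 5.8S read and 1.36 times per listed read. Without GluCTC they were at 0.898 times (0.866 to 0.932) after TAP and 2.58 times (2.49 to 2.68) after 5′ polyphosphatase per 5.8S read, and at 1.66 and 1.82 times per listed read. Per 5.8S read, the CysGCA ratios of 5.90 and 21.3 were larger than these for both enzymes, with and without GluCTC, which was not tested.

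When families were compared with each other, the CysGCA total lay above the median for both enzymes, with other families higher. Its places are uncertain, since the ratios rest on 3 untreated reads, with intervals of 1.80 to 19.3 and 6.60 to 68.6. Over the 41 other families with at least 100 reads in all and reads in each library, the ratio of TAP to untreated testis ran from 0.223 to 90.4 with a median of 2.06, and CysGCA stood at place 9 of 42. The ratio of 5′ polyphosphatase to untreated testis ran from 0.875 to 187 with a median of 6.36, and CysGCA stood at place 10 of 42.

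Counted by name, CysGCA members seldom had enough reads for a comparison in testis. With at least 10 reads over the libraries compared, 85 of 323 names of any kind, or 26.3%, were more than 2-fold higher after TAP than in untreated testis. One CysGCA name, chr6.trna157, had that many reads, and it was among them. With 2 untreated reads, it passed the minimum through the TAP library, where it is high. For 5′ polyphosphatase over untreated testis the background was 41.1%, or 129 of 314 names. The same name was again the 1 member that could be counted, through the treated library. For the names of other tRNAs the shares were 39.7% of 78 with TAP and 74.7% of 95 with the other enzyme.

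The levels of spermatogonia were set beside those of whole testis after TAP, the enzyme that opens the same 5′ ends as RppH. The CysGCA total in spermatogonia was 95.2 ± 29.2 times that of TAP testis per 5.8S read (SD, n = 2; 74.6 and 115.8), and 58.9 ± 1.16 times per listed read. Against testis after 5′ polyphosphatase the ratio was 26.4 ± 8.08 per 5.8S read and 42.6 ± 0.842 per listed read. Both spermatogonia replicates lay far above the testis library under each denominator. Each testis treatment has a single library, so the spread of testis is not known and a tissue difference was not tested. The choice of testis library and denominator moved the ratio by more than the replicates did.

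The ratio is given next by chromosome, a division made with the counts in view, and a difference between chromosomes was not tested. The chr6 names were at 121 ± 36.7 times the TAP testis level (95.2 and 147), and the chr9 and chr11 names at 9.80 ± 4.41 times. For the latter replicate 1 gave a ratio of 6.69 (95% interval 3.11 to 14.4) and replicate 2 one of 12.9 (5.98 to 27.9), from 7 TAP testis reads. Per listed read the ratios were 75.0 ± 1.20 for chr6 and 5.93 ± 1.03 for the others. Against testis after 5′ polyphosphatase they were 30.0 ± 9.10 and 4.44 ± 2.00 per 5.8S read, and 48.5 ± 0.779 and 7.01 ± 1.22 per listed read. Most chr6 reads of spermatogonia came from chr6.trna1023, chr6.trna157 and chr6.trna1029. Of the smaller names, chr6.trna1017 was at 20.9 ± 4.19 times TAP testis per 5.8S read, beside 13.0 ± 6.07 for chr9.trna593.

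Within chr6 the higher run was at 421 ± 129 times the TAP testis level, from 4 testis reads, and the lower run at 58.1 ± 17.3 times. Per listed read these were 260.4 ± 4.93 and 35.9 ± 0.42 times. The lower run is mainly chr6.trna157, which was at 53.2 ± 15.0 times per 5.8S read (42.6 and 63.8) and at 33.0 ± 0.183 times per listed read. For chr6.trna1023 the ratios were 422 (106 to 1690) and 689 (172 to 2759), from 2 testis reads, or 329 and 355 per listed read. These 2 names were picked as the leading names of spermatogonia and of testis, so the larger ratio of chr6.trna1023 follows from that choice.

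For chr6.trna1029, without testis reads, spermatogonia were at least 139-fold and at least 192-fold higher than TAP testis per 5.8S read, taking 3 reads in the testis library as the floor. Per listed read the bounds were 108-fold and 98.8-fold. Against testis after 5′ polyphosphatase they were 53.9-fold and 74.4-fold per 5.8S read, and 109-fold and 100.03-fold per listed read. For chr6.trna162 they were at least 15.0-fold and at least 34.7-fold over TAP testis, and 11.7-fold and 17.9-fold per listed read. For chr6.trna1017 the ratios over TAP testis were 18.0 (4.42 to 73.1) and 23.9 (5.8 to 98.5), from 2 testis reads, or 14.0 and 12.3 per listed read. For chr9.trna593 they were 8.67 (3.53 to 21.3) and 17.3 (7.0 to 42.6), or 6.74 and 8.89 per listed read.

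Of 566 names of any kind with at least 10 reads over the TAP and spermatogonia libraries, 267, or 47.2%, were more than 2-fold higher than TAP testis in both spermatogonia replicates. Among the 11 CysGCA names with that many reads it was 7, namely chr6.trna157, chr6.trna1023, chr6.trna1029, chr6.trna162, chr6.trna1017, chr6.trna1026 and chr9.trna593, and none was more than 2-fold lower. Of the 11, only chr6.trna157 had 10 or more reads in TAP testis. The others passed the minimum through the spermatogonia libraries, so the filter largely fixed the direction of their ratios. A name without TAP reads was counted from the floor of 3 reads, which chr6.trna175, chr6.trna1015, chr6.trna1033 and chr9.trna592 did not pass by enough. Of the names of other tRNAs, 83 of 156, or 53.2%, were higher. Of the 267 names, 74 had no reads in TAP testis and 52 had none in any testis library. These names were already selected as higher in spermatogonia, where the libraries hold more listed reads. Whether the lists of names differ between the tissues at equal numbers of reads was not tested.

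The other tRNA names, summed, were at 2.54 ± 1.42 times the TAP testis level in spermatogonia per 5.8S read and at 1.51 ± 0.446 times per listed read. Without GluCTC, which had most of the tRNA reads in testis, they were at 6.63 ± 3.73 and 3.94 ± 1.18 times. Over the 41 other families the ratio ran from 0.114 to 104 with a median of 4.74. CysGCA stood at place 2 of 42 behind GlyACC, which was at 104 ± 3.95 times from 18 reads in TAP testis, and the 2 values differed by less than the spread of the CysGCA replicates. Against testis after 5′ polyphosphatase, CysGCA stood at place 1 with 26.4 ± 8.08 times and GlyACC at place 7 with 8.54 ± 0.325 times.

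**Figure D4:**
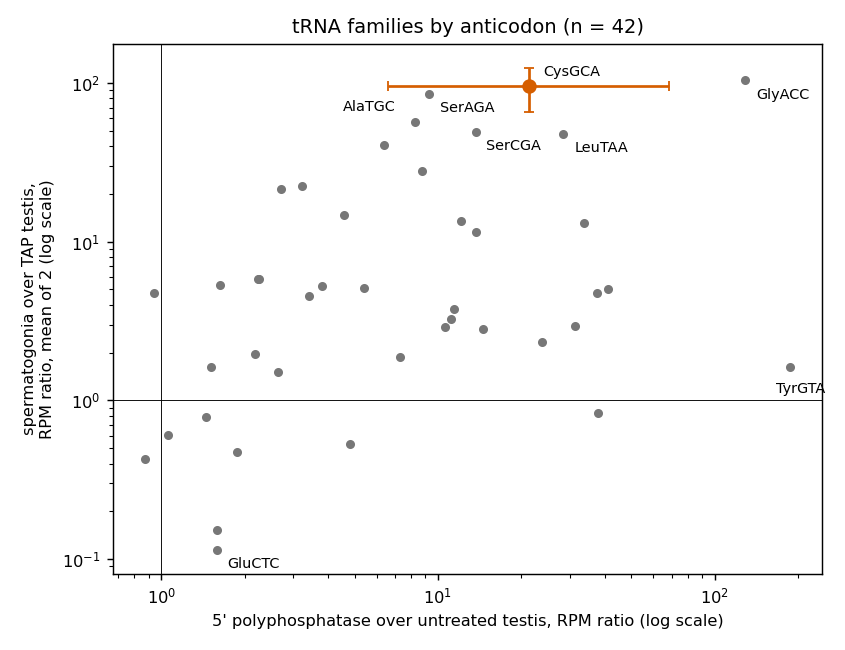
Each point is 1 of 42 tRNA families, with the RPM ratio of 5′ polyphosphatase to untreated testis on the horizontal axis and the mean RPM ratio of spermatogonia to TAP testis on the vertical axis, both on log scales. CysGCA (orange, bars giving the 95% interval across and the SD of the 2 replicates upright) lies at 21.3 and 95.2, with GlyACC above it on the vertical axis.

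The families whose 3 ratios (TAP and 5′ polyphosphatase over untreated testis, spermatogonia over TAP testis) were most like those of CysGCA, by distance on the log2 scale, were LeuTAA, SerCGA and AlaTGC. For LeuTAA the ratios were 7.77, 28.4 and 47.8 ± 45.6, with a wide spread between the replicates. For SerCGA they were 2.95, 13.7 and 49.5 ± 7.62, and for AlaTGC 2.24, 8.27 and 56.9 ± 19.4.

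The CysGCA reads of spermatogonia were spread over more names than those of any other family, yet 3 names gave most of them. In replicate 1 reads fell on 21 names and in replicate 2 on 17, where the next family had 15 in both. CysGCA also has more names to fall on, 22 over all libraries. The next family, AlaAGC, has 15 names, and all of them had reads in both replicates. The leading name, chr6.trna1023, took 37.7% and 39.7% of the CysGCA reads, and 3 names gave at least 90% in each replicate. In testis after TAP and after 5′ polyphosphatase, 4 names were needed to reach 90%, with 30 and 42 reads.

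The composition was close between the replicates. Of the CysGCA reads, chr6.trna1023 gave 38.7% ± 1.36 (SD, n = 2), chr6.trna157 35.5% ± 0.899 and chr6.trna1029 17.6% ± 1.46. Over the 11 members with enough reads, the replicates differed with a chi-square of 2.19 per degree of freedom, where 1 is sampling noise. Over 152 names of other tRNAs it was 68.3. That value is not a like measure, since it also holds shifts between families and many more reads. LeuTAA, for example, took 14.5% of the tRNA reads in replicate 1 and 32.9% in replicate 2. In 14 other families with at least 4 such names it ran from 0.0314 to 27.4 with a median of 5.09, and 4 of them were below CysGCA.

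The inverse Simpson number, the number of equally used names that would give the same concentration of reads, was 3.24 for CysGCA in both replicates. Over 34 other families with at least 100 reads in each replicate its median was 1.68 and 1.74. In replicate 1, 5 families were above CysGCA (AlaAGC, AlaCGC, ArgTCT, ThrAGT and TyrGTA), and in replicate 2 AlaAGC and TyrGTA were. Over all 34 families the leading name took a median of 74.5% and 71.9% of the reads.

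**Figure D5:**
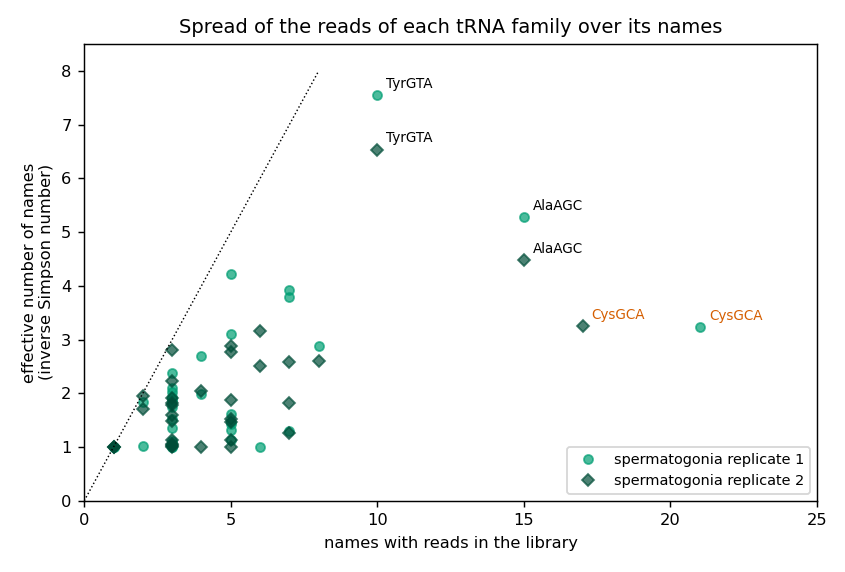
Names with reads (horizontal axis) and inverse Simpson number (vertical axis) of the CysGCA family and 34 other tRNA families in both spermatogonia replicates, with a dotted line where all names would be used equally. CysGCA has the most names, 21 and 17, but an inverse Simpson number of 3.24 in both replicates, far below the line.

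The number of names in testis was set beside that expected in as few reads of spermatogonia. Drawing 30 CysGCA reads from a spermatogonia library gives 4.84 names on average in replicate 1 and 5.04 in replicate 2, and TAP testis had 5 names in 30 reads. Drawing 42 reads gives 5.39 and 5.61 names, and testis after 5′ polyphosphatase had 6 names in 42 reads. At equal numbers of reads the names were thus about as many in testis as in spermatogonia.

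The RefSeq annotation of the mouse genome (GRCm38.p6) sets these names against the genes the genome holds. It lists 57 CysGCA genes, which are 14.1% of 403 nuclear tRNA genes and more than any other family, the next having 24. Of the 57 genes, 49 (86.0%) lie on chr6, 2 on chr9, 5 on chr11 and 1 on chr17. The names with reads numbered 19 on chr6, 2 on chr9, 1 on chr11 and none on chr17, or 38.6 for each 100 annotated genes. The chr6 share of the names was thus close to that of the genes, while the chr6 share of the spermatogonia reads was above it. Which gene a name stands for was not worked out, because the build behind the names is not given in the sources used here, and near-identical genes can share reads.

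On chr6 the CysGCA genes form a cluster. Between the first and the last of the 49 genes RefSeq places 6 other genes, among them the zinc finger genes Zfp777 and Zfp746, and no tRNA gene of another kind. In RefSeq 48 of the 49 lie within the span of the long noncoding RNA gene Gm16630, and none of the genes off chr6 lies within another gene. The GENCODE annotation draws Gm16630 shorter, with 7 of the chr6 genes in its introns and the other 42 intergenic, and places none of the 57 in an exon. The annotated genes are 72 bases long in 56 cases and 70 in 1, below the lower end of the labelled insert range, 115 nt. The lengths of the reads, and so how much of each lay outside the tRNA, are not part of the count tables.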

How the data were processed

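melRNA-seq was done by the study on whole testis RNA (untreated, TAP, 5′ polyphosphatase; 1 library each) and on RppH-treated RNA of sorted spermatogonia (2 libraries). The deposited tables give raw counts, the number of reads of a library that the authors assigned to each name. Before that, the authors trimmed the MiSeq reads with Cutadapt, kept those that held the adaptor in the testis libraries, and named them with RepeatMasker. The versions and the build behind the tRNA names are not given in the sources used here. For spermatogonia the labels repeat the RNA amount and kit of testis, whereas the methods give another amount and the NEBNext kit, and the methods were followed. Samples were grouped by the labels. There were 0 other columns of samples.

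A name not listed in a library was taken as 0 reads. The first lines holding totals were skipped, as was 1 line with a name and no count in each of the untreated and 5′ polyphosphatase tables. From the counts, RPM (per 1000000 5.8S rRNA reads), shares with Wilson 95% intervals, and ratios with 95% intervals from the log ratio (variance the sum of the reciprocal counts) were computed with Python 3.11.15, numpy 2.4.6 and scipy 1.17.1, and drawn with matplotlib 3.10.9. A fold against 0 reads was taken against 3 reads. Neither a model nor a test was used, since testis has 1 library per treatment and the members were chosen on these values. The intervals and the 2-fold counts were tried on simulated counts. For ratios, only names with a base mean of at least 10 reads were judged, under equal denominators. The trial therefore does not show how the intervals behave for testis counts of a few reads.

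The members and the family lists were chosen with earlier results of these data known. The members named are those with at least 10 reads over the 5 libraries, at most 12, together with the chr11 name, which was added after its values were seen. The 3 families named as most alike are the nearest in the 3 log2 ratios, among families with at least 100 reads and reads in every library. Counts of names past 2-fold used a minimum of 10 reads. Alternatives used other denominators, minimum reads, pseudocounts and members, the other treated testis library, or 1 replicate. RefSeq (GRCm38.p6) served only for names, counts and neighbours of genes. RNA of RNase P and sequences of the tRNA genes were not analysed here.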

Additional observations from a re-analysis of the deposited data

How the results depend on the processing

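No paired analysis was possible because testis has 1 library per treatment and shares no replicate numbers with spermatogonia. The CysGCA total and the chr6 names stayed above untreated testis under every scaling tried, while the ratios moved in size. The TAP ratio of the total went from 5.90 to 10.9 per listed read and 15.8 with median-of-ratios scaling. That of the chr6 names went from 6.78 to 12.5 and 18.2, all inside the wide intervals of the reported values. For 5′ polyphosphatase the total went from 21.3 to 15.0 and 14.1, and the chr6 names from 27.4 to 19.3 and 18.2, also inside those intervals. Directions turned for the CysGCA names off chr6, 5′ polyphosphatase over TAP, from 2.21 to 0.846 per listed read and 0.644 with median-of-ratios scaling, and for the other tRNA names, TAP over untreated, from 0.826 to 1.52 and 2.22. These turned ratios and the sums without GluCTC were added after seeing the data. The CysGCA ratio of spermatogonia to TAP testis moved from 95.2 to 58.9 per listed read, 49.3 with median-of-ratios scaling, 62.3 without chr6.trna1023, the member with the most reads, and 26.4 against testis after 5′ polyphosphatase, and leaving out a replicate gave 74.6 to 115.8. For the chr6 names it moved from 121 to 75.0, 62.8 and 79.8 under the first 3 of these, and to 95.2 to 147 without a replicate. The chr6 share became 100% after TAP and after 5′ polyphosphatase when only names with at least 10 reads were kept (no such name is left in untreated testis), and in spermatogonia it was 96.2% without chr6.trna1023 and 97.4% to 97.9% without a replicate. With a minimum of 50 reads, 40 of all names were higher after TAP (85 as reported) and 64 after 5′ polyphosphatase (129), with 0 CysGCA names in both. With a minimum of 3 reads, 2 CysGCA names were higher after 5′ polyphosphatase (1 as reported), beside 163 of all names (129 as reported). Per listed read, 19 of all names were lower after 5′ polyphosphatase (9 as reported). With 0.5 reads added to each count, 11 CysGCA names were higher in spermatogonia (7 as reported), beside 309 of all names (267 as reported). The exact intervals and the counts with a replicate left out were added after seeing the data: the latter gave 7 to 8 CysGCA names and 277 to 310 of all names higher in spermatogonia, and 90 to 110 lower (88 as reported). The cause of these shifts was not tested. The untreated library holds 3 CysGCA reads, on which each ratio to it rests, and no member other than chr6.trna157 reaches 10 reads in a testis library.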

Other observations

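Other small RNAs made by RNA polymerase III gave a frame for these ratios. Per 5.8S read, 5S rRNA was at 4.14 times its untreated testis level after TAP and at 7.18 times after 5′ polyphosphatase, and 7SK RNA, which regulates transcription elongation, was at 3.44 and 2.29 times. U6, the spliceosomal RNA, was at 1.27 and 3.55 times, and the Y1 and Y3 RNAs together at 1.19 and 3.21 times. In spermatogonia U6 was at 97.7 ± 57.6 times its TAP testis level (SD, n = 2), beside 95.2 ± 29.2 for CysGCA, while Y1 and Y3 were at 2.71 ± 1.38 and 5S rRNA at 1.01 ± 0.885 times. Per listed read, the TAP and 5′ polyphosphatase ratios were 7.63 and 5.07 for 5S rRNA, 6.34 and 1.61 for 7SK, 2.34 and 2.50 for U6, and 2.20 and 2.27 for Y1 and Y3. Per listed read, spermatogonia were at 57.8 ± 19.1 times for U6, 1.63 ± 0.389 times for Y1 and Y3 and 0.570 ± 0.385 times for 5S rRNA, which is on the other side of 1 from its value per 5.8S read. 7SK is not listed for spermatogonia.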
